A study of Danio rerio with 6 samples.

Results

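The genes described here are 9 zebrafish genes of the Il11, Jak1 and Stat3 pathway: the ligand genes *il11a*, *il11b* and *lepb*, the receptor gene *il6st*, the kinase gene *jak1*, the transcription factor genes *stat3* and *cebpb*, and the feedback inhibitor genes *socs3a* and *socs3b*. They are the rows that carry these names among the 31953 genes of the table, and each name matched 1 row. The names were chosen by results of the same comparison of crispant with mock control embryos, so their differences between the groups are given as a description, with no p-value, and the counts of members that a test called support nothing. The mean level of *il11a* was 0.127 ± 0.140 CPM in mock control embryos and 4.28 ± 0.748 CPM in *dancr* del F0 crispants (SD, n = 3 for each). That of *socs3b* was 13.6 ± 1.65 and 47.1 ± 8.43 CPM in the same order (SD, n = 3 for each). CPM is the read count of a gene scaled to a common library total, and values by library are given in the order of replicates 1, 2 and 3.

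Il11 belongs to the cytokines that signal through the shared receptor subunit gp130, the product of *il6st*. Binding of the ligand to its own receptor brings gp130 and its attached kinase Jak1 together, Jak1 phosphorylates Stat3, and Stat3 enters the nucleus and activates genes. One of these is Socs3, which binds the receptor complex and shuts the signal down, so that Socs3 transcripts are often read as a mark of the pathway's activity. In zebrafish, *il11* and leptin b genes are induced at wounds, and Stat3 signalling takes part in the regeneration of fins, heart and retina.

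Whole embryos of the wild type AB strain, which was used unless stated otherwise, were collected at 30 hpf, and each group has 3 libraries. Approximately 30 embryos made up a group, and it is not clear whether this number holds for each library. The *dancr* promoter was deleted by Cas9 with a pool of 4 crRNAs injected at the single cell stage, and mock mixtures had no crRNA against *dancr*. Injected F0 embryos are mosaics of edited and unedited alleles, and the crispants taken for RNA were of Class I and II, the most severe body shapes, in which necrosis is prominent. The 4 crRNAs are shown because they set the crispant group apart, and their position in the genome was not mapped here. They are written 5′ to 3′, with the 10 bases at the 3′ end, next to the PAM, in capitals.
dancr-1: actccccaaaTCATCTGAAG
dancr-2: tctgagccccCTGACTGAAG
dancr-3: tttgcacaatCCCTGAGAGC
dancr-4: aaagcccactATAACTGTTC

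Between 33841805 and 40515803 reads were counted on genes in each library. Mock control replicate 3 was unlike the rest, with a TMM scaling factor of 0.749 where the others had 0.988 to 1.14. Relative to the mean of the 6 libraries its 2522 tested genes of 5000 bases or more had a median log2 deviation of -0.44 and its 4959 tested genes under 1500 bases one of 0.41. In the other libraries these medians lay between -0.04 and 0.28 and between -0.17 and 0.05. Values without this library are therefore given beside many of the main results. Of 24 markers of muscle, neural tissue, epidermis, heart, endothelium, blood, pigment cells and lens, 0 were at 0 counts in any library, and their summed level was 25600 to 51100 CPM in mock control libraries, highest in replicate 3, and 23600 to 28700 CPM in crispant libraries. The sum mostly reflects epidermis and muscle, since *krt4*, *actc1b* and *mylpfa* were at 23900, 13100 and 6780 CPM in mock control replicate 3. Of the 23 tested, 2 had a log2 fold change above 0, and the median was -0.75, or -0.26 without mock control replicate 3. By edgeR 4 had an unadjusted p below 0.05 and 0 were called, as by DESeq2 and limma-voom. The part of this shift in the members' values was not tested. In whole embryos, fewer cells of a type and less RNA per cell cannot be told apart.

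*il11a* (ENSDARG00000037859, plus strand of chromosome 16 of GRCz10, from 12718110 to 12726230) encodes one of the Il11 ligands. It had 10, 4 and 0 reads in the mock control libraries, and 170, 192 and 141 reads in the crispant libraries. This is 0.277, 0.104 and 0 CPM in the mock control libraries and 4.61, 4.80 and 3.42 CPM in the crispant libraries. The groups lie far apart, and crispant replicate 3 is the lowest of its group. The ratio of the mean levels was 33.7, and the log2 fold change in edgeR was 4.99 with a standard error of 0.81, rank 5 from the top among the 20812 genes tested. That value rests on 14 counts in all in the mock control group, and it was 6.13 without mock control replicate 1 and 4.49 without mock control replicate 3.

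*il11b* (ENSDARG00000058557, minus strand of chromosome 19, from 10509147 to 10520900) is the second Il11 gene of the zebrafish. It had 23, 24 and 4 reads in the mock control libraries and 126, 77 and 116 reads in the crispant libraries, or 0.637, 0.626 and 0.140 CPM against 3.42, 1.92 and 2.81 CPM. Every crispant library was above every mock control library, and the lowest crispant library was replicate 2. EdgeR put the log2 fold change at 2.51 (standard error, SE, 0.60), and 2.12 without mock control replicate 3.

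The 2 Il11 genes stood in opposite order in the groups. To compare them per length of transcript, the authors' FPKM was used, which is reads scaled to gene length and to a DESeq2-scaled library total. On this scale *il11b* was above *il11a* in all 3 mock control libraries, at 0.267, 0.263 and 0.0577 FPKM against 0.123, 0.0465 and 0 FPKM. In all 3 crispant libraries *il11a* was the higher of the pair, at 2.05, 2.13 and 1.51 FPKM against 1.43, 0.804 and 1.17 FPKM for *il11b*. The listed lengths of the genes are close, 2226 and 2364 bases, so that the share of *il11a* in the counts of the pair can be read nearly directly. It was 30.3% (exact 95% interval 15.6 to 48.7) and 14.3% (4.03 to 32.7) in mock control replicates 1 and 2, and 0 of 4 counts in replicate 3, which allows up to 60.2%. In the crispant libraries it was 57.4% (51.6 to 63.1), 71.4% (65.6 to 76.7) and 54.9% (48.6 to 61.1). The intervals cover counting error only, since the reads carry no molecular identifiers. The interval of mock control replicate 3 overlaps those of crispant replicates 1 and 3, and not that of crispant replicate 2. Those of mock control replicates 1 and 2 overlap no crispant interval, apart from a narrow overlap of mock control replicate 1 with crispant replicate 3.

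**Figure D1:**
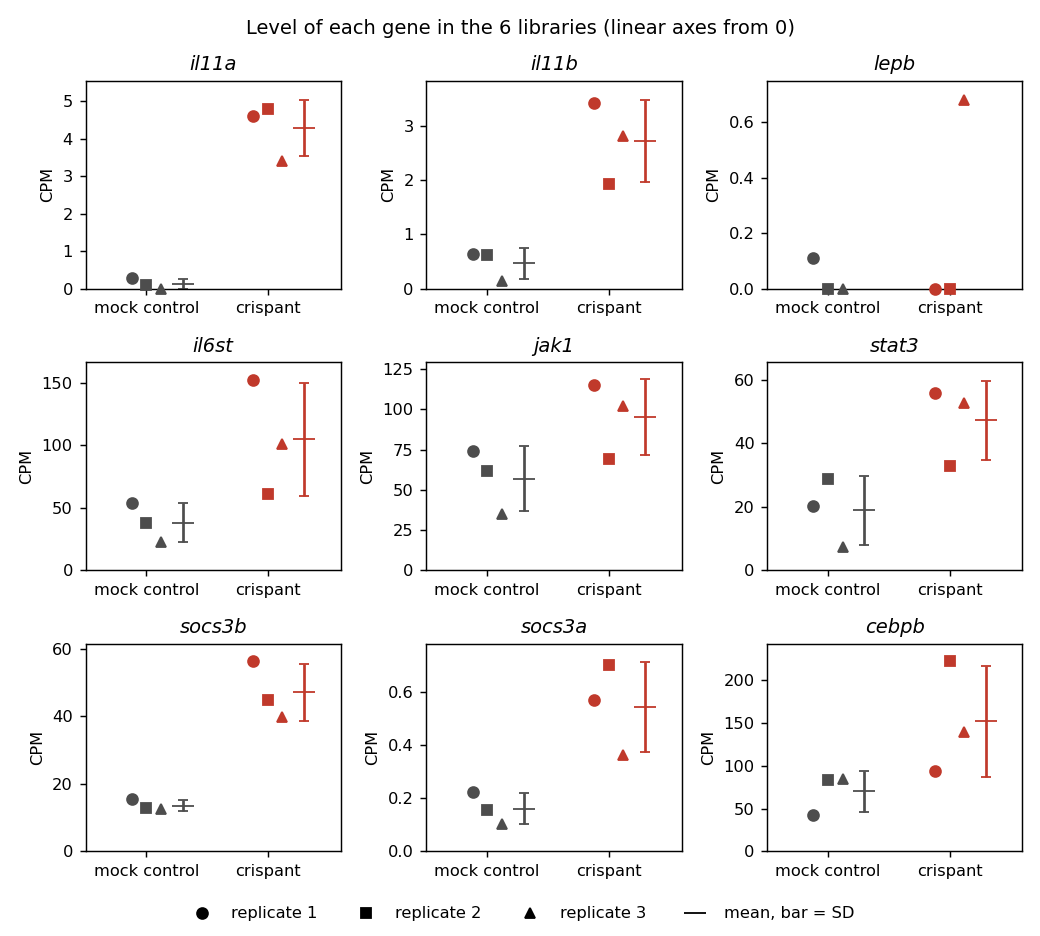
CPM of each of the 9 genes (vertical axes, linear and from 0) in the 3 mock control libraries (grey) and the 3 crispant libraries (red), with a symbol for each replicate. Horizontal ticks are group means and bars are SDs cut at 0, left out for *lepb*. The groups do not overlap for *il11a*, *il11b*, *il6st*, *stat3*, *socs3b*, *socs3a* and *cebpb*, and they do for *jak1* and *lepb*.

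*lepb* (ENSDARG00000045548, minus strand of chromosome 4, from 19042792 to 19044829) encodes leptin b, a ligand of the leptin receptor, which is related to gp130. It had 4, 0 and 0 reads in the mock control libraries and 0, 0 and 28 reads in the crispant libraries. A count of 0 allows up to 3 counts, or from 0.0750 to 0.105 CPM in these 4 libraries, while crispant replicate 3 was at 0.679 CPM. The level was thus seen in 1 crispant library and, faintly, in 1 mock control library. It was the only member that did not pass the filter on low counts, so it was not tested. All reads of the crispant group came from 1 library, so no difference between the groups can be given. The other leptin gene, *lepa*, is described with the pathway list below.

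*il6st* (ENSDARG00000104693, minus strand of chromosome 10, from 5787401 to 5820365) encodes gp130. It was at 53.6, 38.1 and 22.2 CPM in the mock control libraries and at 152.0, 61.2 and 101.0 CPM in the crispant libraries. The groups do not overlap, but crispant replicate 2 lies close to mock control replicate 1. EdgeR put the log2 fold change at 1.47 (SE 0.41). Leaving out mock control replicate 3 gave 1.21, and leaving out crispant replicate 1, the highest library, gave 1.09.

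*jak1* (ENSDARG00000020625, plus strand of chromosome 6, from 31381157 to 31442247) encodes the kinase that gp130 carries. Its level was 74.3, 61.5 and 34.7 CPM in the mock control libraries and 115.0, 69.4 and 102.0 CPM in the crispant libraries. It is the only tested member whose groups overlap, since crispant replicate 2 was below mock control replicate 1. EdgeR put the log2 fold change at 0.75 (SE 0.32), the smallest among the members, and it was 0.51 without mock control replicate 3. *il6st* and *jak1* are the longest of the members, at 8398 and 6712 bases, and mock control replicate 3, the library with few reads on long genes, had the lowest value for both. With the trend of each library on gene length removed, the log2 fold changes were 1.49 and 0.76.

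*stat3* (ENSDARG00000022712, plus strand of chromosome 3, from 16880865 to 16957645) encodes the transcription factor on which the pathway converges. It had 20.4, 28.9 and 7.32 CPM in the mock control libraries and 56.0, 32.8 and 52.9 CPM in the crispant libraries. The gap between the groups is narrow, from mock control replicate 2 to crispant replicate 2. EdgeR put the log2 fold change at 1.32 (SE 0.46), with 0.96 without mock control replicate 3 and 1.77 without mock control replicate 2.

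*socs3b* (ENSDARG00000026611, plus strand of chromosome 12, from 34157076 to 34176402) is the Socs3 gene with nearly all of the Socs3 reads. Its level was 15.5, 12.8 and 12.5 CPM in the mock control libraries and 56.4, 45.0 and 39.9 CPM in the crispant libraries. The spread within each group is small against the gap between them, and mock control replicate 3 does not stand apart. On the log2 scale the fold change was 1.79, its standard error of 0.23 was the smallest among the members, and leaving out each library in turn gave from 1.64 to 1.90.

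*socs3a* (ENSDARG00000025428, minus strand of chromosome 3, from 57352613 to 57355437) had 8, 6 and 3 reads in the mock control libraries and 21, 28 and 15 reads in the crispant libraries. In CPM this is 0.222, 0.156 and 0.105 against 0.570, 0.700 and 0.364, and the groups do not overlap. The log2 fold change was 1.72 (SE 0.61), close in size to that of *socs3b* but from 17 and 64 counts in all. Without mock control replicate 3 it was 1.52. *socs3b* took 98.6%, 98.8% and 99.2% of the counts of the pair in the mock control libraries and 99.0%, 98.5% and 99.1% in the crispant libraries. The exact 95% intervals of these shares all lie within 97.2% to 99.8% and overlap between the groups.

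**Figure D2:**
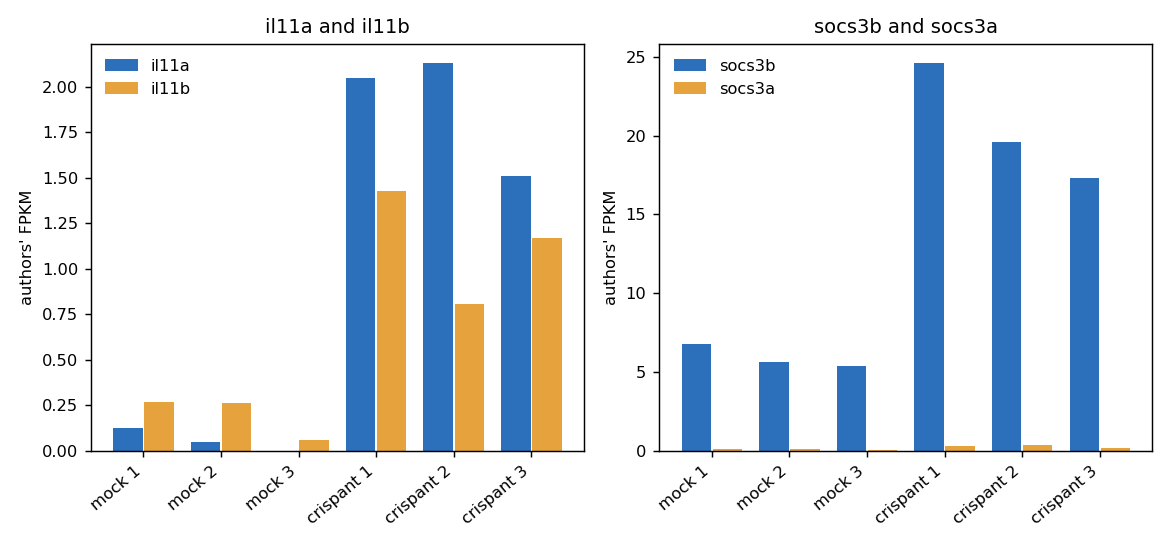
Authors' FPKM (vertical axes, linear and from 0) of *il11a* and *il11b* (left) and of *socs3b* and *socs3a* (right) in each library, 1 bar per gene. The taller bar of the Il11 pair is *il11b* in the 3 mock control libraries and *il11a* in the 3 crispant libraries, while *socs3b* is the taller bar of its pair in all 6.

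*cebpb* (ENSDARG00000042725, minus strand of chromosome 8, from 28414259 to 28415774) encodes a C/EBP transcription factor that in mammals acts with Stat3 on acute phase genes. It was at 42.7, 83.6 and 85.0 CPM in the mock control libraries and at 94.1, 222.0 and 140.0 CPM in the crispant libraries. Crispant replicate 1 was little above mock control replicates 2 and 3, and crispant replicate 2 was the highest. EdgeR put the log2 fold change at 1.11 (SE 0.37), with 0.76 without crispant replicate 2 and 1.28 without mock control replicate 3.

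Of the 9 members, 8 passed the filter on low counts. *il11a*, *il11b* and *socs3a* passed it through the crispant libraries, since only 1, 2 and 0 of their mock control libraries reached the minimum. For *il11a* and *socs3a* a higher value in crispants was thus a condition of being tested. For *il11b* a crispant library at the level of those 2 mock control libraries would have been enough. With genes called at 0.05 for the adjusted p and at 1 for the size of the log2 fold change, edgeR's quasi-likelihood test called 0 of the 8 members, where it called 0% of all genes. Of the 20812 genes, 1142 had an unadjusted p below 0.05 in edgeR, and limma-voom called 0 genes. DESeq2 on the same genes called *il11a*, *il11b* and *socs3b*, 3 of the 8, where it called 0.567% of all genes as higher and 0.202% as lower. Without mock control replicate 3, edgeR called *il11a* and *socs3b*, where it called 0.0888% of all genes as higher and 0.00468% as lower. At any p, 7 of the 8 had a log2 fold change of at least 1, which 3.69% of all genes had. The groups did not overlap, with the crispants higher, for 7 of the 8, as they did for 6.5% of all genes tested. The names were chosen with this comparison known, so nothing about the set is read from these counts. Leaving out any 1 library kept every tested member above 0 on the log2 scale, with the lowest value 0.51, for *jak1*. For the 7 whose groups do not overlap this could hardly come out otherwise, so it supports nothing.

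**Figure D3:**
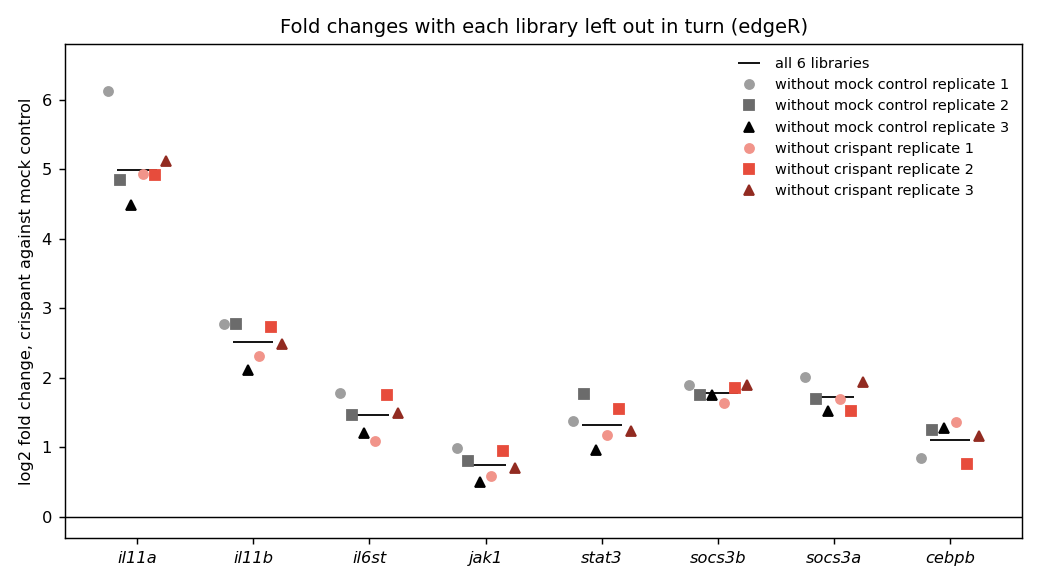
Log2 fold change of crispant against mock control embryos (vertical axis, edgeR) for the 8 tested members, with all 6 libraries (black line) and with each library left out (symbols). All points are above 0, which could hardly come out otherwise for members whose groups do not overlap. The widest range is that of *il11a*, from 4.49 to 6.13, and the narrowest is that of *socs3b*, from 1.64 to 1.90.

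Per length, the transcription factor *cebpb* was the most abundant member in both groups, at 45.8 ± 15.5 FPKM (SD, n = 3) in mock control embryos and 98.8 ± 42.0 FPKM (SD, n = 3) in crispants. In mock control embryos *jak1* followed with 8.36 ± 3.02, *stat3* with 5.99 ± 3.48, *socs3b* with 5.92 ± 0.745 and *il6st* with 4.46 ± 1.86 FPKM (SD, n = 3). The ranges of these 4 genes overlap, although *socs3b* was above *il6st* within each mock control library. In crispants *socs3b* was second at 20.5 ± 3.75 FPKM, above *stat3* at 14.9 ± 3.98, *jak1* at 14.0 ± 3.47 and *il6st* at 12.3 ± 5.40 FPKM (SD, n = 3). Within a library, *socs3b* exceeded *stat3* in all 3 crispant libraries and in 2 of the 3 mock control libraries. The ligand genes and *socs3a* were far lower, at 0.0565 to 0.196 FPKM on average in mock control embryos and 0.278 to 1.89 FPKM in crispants.

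The members did not share 1 order over the crispant libraries. *il11b*, *il6st*, *jak1* and *stat3* were all lowest in crispant replicate 2, whereas *il11a*, *socs3a* and *cebpb* were highest there. *socs3b* was highest in replicate 1 and lowest in replicate 3. Over the 6 libraries, with log2(CPM + 1) values, Pearson's r was 0.97 for *il6st* with *jak1*, 0.95 for *jak1* with *stat3* and 0.99 for *il11a* with *socs3b*, but 0.15 for *cebpb* with *jak1* and 0.25 for *cebpb* with *il6st*. These values describe 6 libraries that fall into the same 2 groups, and all genes share each library's depth and length trend.

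The other genes of the pathway were taken from a list of 55 names, of which 49 matched a gene and 45 passed the filter on low counts. Of these 45, edgeR's test with Benjamini-Hochberg adjustment called 0 in either direction, and 5 had an unadjusted p below 0.05. DESeq2 called 1, which is not reported here by name, and limma-voom called 0. The median log2 fold change of the 45 genes was 0.19, against -0.04 over all genes tested, and 0.09 without mock control replicate 3, against 0.01 over all genes. The groups did not overlap for 8 of them with the crispants higher and for 3 with the crispants lower, where all genes gave 6.5% and 5.44%.

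Among the ligands, *il6*, the founding member of the family, was close to the limit of detection, with 5, 3 and 2 reads in the mock control libraries and 5, 3 and 4 reads in the crispant libraries, and it was not tested. *lepa*, which encodes the other leptin, had 4, 11 and 3 reads in the mock control libraries and 33, 23 and 26 reads in the crispant libraries. Its groups do not overlap, and the log2 fold change was 2.02 (SE 0.63, adjusted p = 0.683 in edgeR), and 1.81 without mock control replicate 3. Only 1 of its mock control libraries reached the minimum of the filter, so a higher value in crispants was a condition of its being tested. *crlf1a*, whose product is a partner of gp130 ligands in mammals, was at 10.9 CPM in mock control embryos and 13.6 CPM in crispants, and the log2 fold change was 0.32 (SE 0.24, adjusted p = 0.999 in edgeR).

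Among the receptors, *il11ra*, for the subunit that recognises Il11, had 146, 83 and 13 reads in the mock control libraries and 90, 50 and 79 reads in the crispant libraries, and the log2 fold change was -0.25 (SE 0.69) and -0.71 without mock control replicate 3. The groups overlap, and leaving out each library in turn gave from -0.71 to 0.50, so no direction can be given. *lifrb*, a leukaemia inhibitory factor receptor gene whose product pairs with gp130, had groups that do not overlap, at 3.41 and 6.71 CPM, and its log2 fold change was 0.97 (SE 0.37, adjusted p = 0.814 in edgeR), and 0.76 without mock control replicate 3. The leptin receptor gene *lepr* was at 28.2 and 35.8 CPM in mock control embryos and crispants, its groups overlap, and its log2 fold change was 0.34 (SE 0.24), or 0.17 without that library. *osmr* had 1 count in all 6 libraries together.

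Among the kinases, *jak2a* was at 43.6 CPM in mock control embryos and 44.3 CPM in crispants, a log2 fold change of 0.02 (SE 0.20). *jak2b* had groups that do not overlap, with the crispants lower, at 40.7 and 30.7 CPM, and its log2 fold change was -0.41 (SE 0.18, adjusted p = 0.942 in edgeR). *tyk2* and *jak3* had log2 fold changes of 1.01 (SE 0.83) and -1.13 (SE 0.78) with overlapping groups, and 0.52 and -0.83 without mock control replicate 3. Only 2 mock control libraries for *tyk2* and 1 crispant library for *jak3* reached the minimum of the filter. Of the other STAT genes only some are described here, and these do not stand for the family. *stat4* had a log2 fold change of 0.34 (SE 0.34), and *stat5a* and *stat5b* had values of 0.15 and 0.22 with overlapping groups, and -0.37 and -0.05 without mock control replicate 3.

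The 19 other tested genes of feedback inhibitors, STAT inhibitors (PIAS) and phosphatases had a median log2 fold change of -0.02, and 9 of them were above 0. None of the other tested SOCS genes had groups that do not overlap, and their values lay between -0.44 for *socs1a* and 0.62 for *socs4*, which were 0.11 and 0.16 without mock control replicate 3. *cish*, a target of Stat5 in mammals, was at 4.81 and 4.11 CPM and the log2 fold change was -0.23 (SE 0.36), or -0.0 without mock control replicate 3. *ptpn6*, a phosphatase gene of blood cells, had groups that do not overlap with the crispants lower, at 6.30 and 2.80 CPM, and its log2 fold change was -1.16 (SE 0.44, adjusted p = 0.805 in edgeR), and -0.75 without mock control replicate 3. The values of *pias2* and *ptpn11a*, whose groups also did not overlap, were -0.35 and 0.17. Of the C/EBP genes, *cebpd*, like *cebpb* a gene of the acute phase response, was at 49.5 and 77.3 CPM and its log2 fold change was 0.64 (SE 0.26, adjusted p = 0.857 in edgeR). *cebpz* had 0.22 (SE 0.18), and *cebpa* and *cebpg* had 0.20 and 0.19 with overlapping groups.

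**Figure D4:**
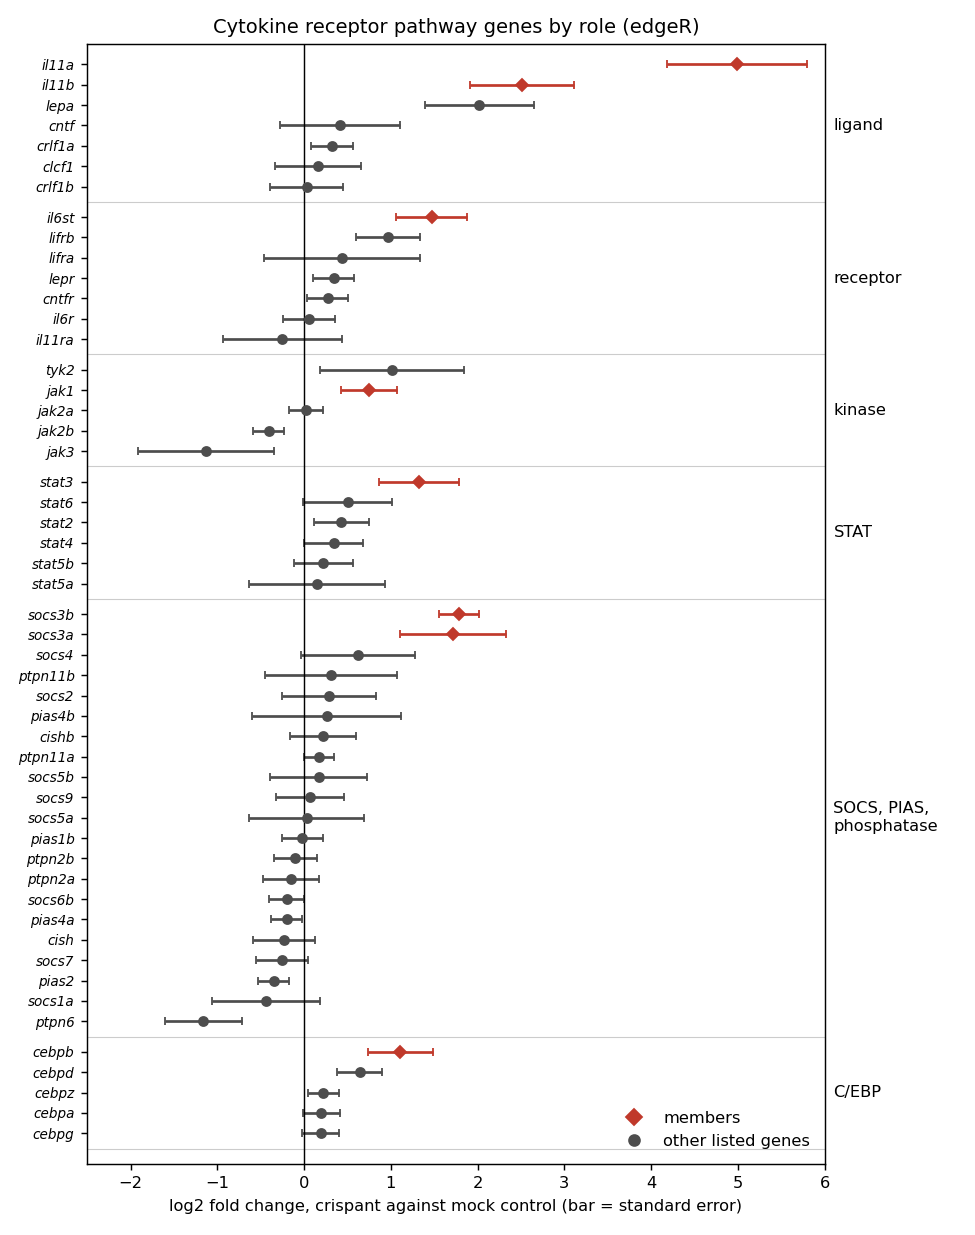
Log2 fold change of crispant against mock control embryos (horizontal axis, edgeR) for the 8 tested members (red diamonds) and other tested pathway genes (grey circles), grouped by role, with standard errors as bars. The members were chosen with this comparison known. Of the other genes shown, *lepa* (2.02) has the largest value, and most of the rest lie near 0. Not all tested genes are shown, and the 1 that DESeq2 called is among those left out.

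The genes whose pattern over the 6 libraries was most like that of *il11a* were looked for among 17041 other tested genes with a mean of at least 50 counts, by Pearson's r of log2(CPM + 1). They were *si:dkey-162h11.3* (r = 0.993), *socs3b* (0.992), *sgk2b* (0.988), *sesn3* (0.987) and *oc90* (0.987). For *socs3b* they were *sesn3* (r = 0.997), *si:dkey-162h11.3* (0.993), *si:ch211-153b23.5* (0.992), *il11a* (0.992) and *prss56* (0.987). Each of the 2 members was thus among the 5 genes most like the other. *sesn3*, a sestrin gene that is a FoxO target in mammals, was at 60.6, 49.6 and 53.0 CPM in the mock control libraries and 155.0, 128.0 and 126.0 CPM in the crispant libraries. The 6 libraries fall into the same 2 groups, so these r values are a description.

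Genes known as Stat3 targets in mammals were taken from a second list, with 19 genes for survival, growth and signalling. Of the 18 tested, edgeR's test called 0, 3 had an unadjusted p below 0.05 and limma-voom called 0. The median log2 fold change was 0.06, against -0.04 over all genes tested, and 0.17 against 0.01 without mock control replicate 3. DESeq2 called 2, *bcl3* and *mmp9*, which were known from earlier results to be high. *bcl3*, a nuclear partner of NF-kB, had 63, 57 and 27 reads in the mock control libraries and 439, 263 and 367 reads in the crispant libraries, and the log2 fold change was 2.71 (SE 0.39, adjusted p = 0.164 in edgeR). *mmp9*, a matrix metalloproteinase gene, was at 14.8 and 154.0 CPM, and the log2 fold change was 3.38 (SE 0.44, adjusted p = 0.148 in edgeR). Without mock control replicate 3 edgeR called both genes. Of the 18, 10 were above 0. *junba*, the other gene with an unadjusted p below 0.05, had a log2 fold change of 1.17 (SE 0.46, adjusted p = 0.823 in edgeR). *junbb* had 1.40 (SE 1.06). Their groups overlap, and the values were 0.97 and 0.95 without mock control replicate 3. The survival gene *mcl1a* and the kinase gene *pim1* had log2 fold changes of -0.12 and 0.08, and the proto-oncogene *myca* had 0.00, all with overlapping groups. That of *mcl1a* was 0.34 without mock control replicate 3.

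Neutrophils and macrophages make and answer cytokines of this family. The summed level of 12 of their markers was 80.3, 64.5 and 103.0 CPM in the mock control libraries and 43.4, 49.7 and 39.9 CPM in the crispant libraries. The sum mostly reflects *lyz*, *mpx*, *lcp1* and *coro1a*, which were at 31.2, 21.6, 17.1 and 16.3 CPM in mock control replicate 3. Of the markers, 0 were at 0 counts in any library. Of the 12, edgeR's test called 0, limma-voom called 0, DESeq2 called 1 as lower, where it called 0.202% of all genes, and 4 had an unadjusted p below 0.05. The groups did not overlap for 5 with the crispants lower and for 0 with the crispants higher, where all genes gave 5.44% and 6.5%. The median log2 fold change was -0.72, or -0.56 without mock control replicate 3. Over all genes tested it was -0.04, or 0.01 without that library. For the 23 tested tissue markers given above it was -0.75, or -0.26 without that library. Of the 12, 3 were above 0. These were *ncf1* at 0.51, *csf1ra* at 0.20 and *marco* at 0.11, of which *csf1ra* was at -0.23 without mock control replicate 3. The lowest value was that of the lysozyme gene *lyz*, at 17.6 and 4.01 CPM (log2 fold change -2.14, standard error 0.48, adjusted p = 0.479 in edgeR), with -1.43 without mock control replicate 3. The part of these cells in the members' values was not tested.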

How the data were processed

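RNA-seq was carried out on polyA selected, strand-specific libraries. The deposited table gives unnormalised read counts for each gene, from HISAT2 alignments to GRCz10/danRer10, and FPKM values of the authors. Recomputing the FPKM showed them to be the counts over gene length and DESeq2-scaled totals. The counting tool and its strand setting are not given in the sources used here. The deposited table also holds, from the authors' own comparison, a mean signal per group, a log2 fold change and p-values. These were not used. No listed gene span overlapped that of a member. The number of per-library columns not used was 0. Groups and replicate numbers came from the sample titles.

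Counts were filtered with filterByExpr (minimum count 10), scaled by TMM and tested with edgeR 4.0.16 in R 4.3.3, with no covariate, and p-values were adjusted over 20812 genes. Standard errors came from the fold change and the F statistic. Limma 3.58.1 and DESeq2 1.42.0 were used as alternatives. The edgeR function was tested on simulated counts. The libraries are biological replicates by the study's methods. Separate clutches are not named, and p-values measure the spread between these libraries. The members and gene lists were chosen with earlier results of these data known. The pathway genes named are all members, and within each role up to 2 genes with the largest rise and 2 with the largest fall whose groups do not overlap, besides genes given for their level. *cish*, *socs1a*, *socs4*, *cebpa*, *cebpg*, *mcl1a*, *pim1*, *myca*, *lyz*, *ncf1*, *csf1ra*, *marco*, *saa*, *fga*, *fgb* and *fgg* were added for their roles after their values were seen. *junba*, *junbb*, *tyk2*, *jak3*, *hamp*, *cp*, *mpx*, *lcp1* and *coro1a* were also added after their values were seen. Likeness genes were the 5 with the highest r. Of rows with the same name, *cishb* and *hp* were taken by the gene name table and biotype. Some genes of the lists, also where this rule would name them, are counted but not reported here by name or in the plots.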

Additional observations from a re-analysis of the deposited data

How the results depend on the processing

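Over all genes, the count of calls was 0 in edgeR with DESeq2's size factors, in limma-voom and with no minimum fold change, 2 with no filter on low counts, 160 with DESeq2 and 174 with DESeq2 and no minimum fold change. Alternatives chosen after seeing the data gave 2 genes with the length trend removed and 324 with quality weights for each sample in limma-voom. Among the members these fits called 3 with DESeq2, with or without the minimum fold change, 4 with quality weights and 0 otherwise. Among the pathway and Stat3 target genes they called 3 with DESeq2, with or without the minimum, 3 with quality weights and 0 otherwise. With each library left out, edgeR called from 0 to 20 genes, from 0 to 2 members and from 0 to 2 listed genes, the most without mock control replicate 3, and DESeq2 called 53, 74 and 95 genes without crispant replicates 1, 2 and 3, 127, 212 and 301 without mock control replicates 1, 2 and 3, from 2 to 5 members and from 2 to 3 listed genes. DESeq2 called *il11a* and *socs3b* in each of those 6 fits, which, like DESeq2 with no minimum fold change, were chosen after seeing the data. The members were chosen with this comparison known and the fits share most libraries, so these repeated calls support nothing. The pathway median stayed between 0.04 and 0.31. Of 152 alternative log2 fold changes of members 140 moved by less than the spread between replicates, and 12, all of *il11a* or *socs3a*, moved by more. The spread was the SD of log2 CPM with a small offset, which makes it smaller for genes as low as these. Of the 152 values 0 were below 0, which could hardly come out otherwise for members whose groups do not overlap. Libraries with the same replicate number had correlations of their deviations from the group means of 0.23, -0.06 and -0.12. Those with unlike numbers had from -0.39 to 0.29. With so few libraries these values cannot decide whether the replicate numbers pair the libraries. With the replicate block the call count was 0. At these depths the ligand genes and *socs3a* rest on few counts in mock control embryos.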

Other observations

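Acute phase genes, which the liver makes under Il6 family signals in mammals, were taken from the same list as the Stat3 targets. Of 7 listed, 5 were tested, edgeR's test, DESeq2 and limma-voom called 0 of them, 1 had an unadjusted p below 0.05, their median log2 fold change was -0.48 (-0.06 without mock control replicate 3), and the groups overlapped for all 5. *saa*, the serum amyloid gene, had 1 count in mock control replicate 2 and 0 in the other 5 libraries. The fibrinogen genes *fga*, *fgb* and *fgg* were at 271.0, 150.0 and 115.0 CPM in mock control embryos and at 194.0, 156.0 and 57.2 CPM in crispants. Their log2 fold changes were -0.48, 0.06 and -1.01, and -0.10, 0.37 and -0.57 without mock control replicate 3. *hamp* was at 0.665 and 1.03 CPM, a log2 fold change of 0.64, or 1.19 without that library. *cp* was at 55.9 and 40.1 CPM, a log2 fold change of -0.48, or -0.06 without that library.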
